A study of Zea mays with 4 samples.

Results

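The 200 genes described here were those whose share of the reads varied least between whole maize leaf and protoplasts released from it. The share is that among reads of genes held for all libraries, not of all reads. They were selected on the measured values themselves. A gene had to be held intact for all 4 libraries, as 18609 of 46430 annotated genes were, and to have a raw count between 500 and 5000 in every library, as 1799 of the 18609 did (the count window, 9.67%). These 1799 genes were ranked by the range of log2 CPM, which is the largest minus the smallest of the 4 library values, with CPM, counts scaled to a common library size, taken from a library's total over the 18609 shared genes. The 200 genes with the smallest ranges were taken, 11.12% of the window. The rule also named 3 genes to be left out, and 0 of them were among the 200 smallest ranges. Because the range chose the members, their levels and differences are given as a description, and where a test over all genes counts members among its calls, that count is a description too.

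All libraries came from seedlings of the B73 inbred line, from the distal 6 cm of leaf 2 at the V2 stage, and polyA RNA was sequenced. Whole leaf segments homogenized in liquid nitrogen gave 2 leaf libraries, and protoplasts, cells freed of their walls by enzyme digestion of the same leaf portion, gave 2 protoplast libraries. Per the labels, the leaf segments of 6 plants grown together went into each protoplast pool, whereas the study's methods give fewer leaves for each pool, of protoplasts and of whole leaf segments alike. Both groups share the genotype, the organ and the growth conditions. A protoplast library differs from a leaf library by the digestion, by the time it took, and by which cells it released. It also differs by the cutting, pretreatment and washing around the digestion. By the study's methods, the whole leaf tissue came from sibling plants, so the plants differ as well. These differences cannot be told apart here.

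Levels of mRNA in a tissue are compared between samples relative to something else in the same sample, either the total of all reads or reference genes taken to be even. Genes used as such references commonly encode parts of the cytoskeleton, of translation or of protein turnover. In a C4 leaf such as that of maize, photosynthesis is divided between mesophyll cells, which fix carbon first, and bundle sheath cells around the veins, which hold Rubisco, and the bundle sheath resists enzyme digestion more than the mesophyll does. In bulk libraries, fewer cells of a type and less RNA per cell cannot be told apart.

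Marker genes of the leaf's cell types differed in how much of their signal the protoplast libraries held. RBCS2, which encodes the small subunit of Rubisco in the bundle sheath, was at 8225 and 8192 CPM in the leaf libraries and at 121 and 113 CPM in the protoplast libraries. SUT1, which encodes a sucrose transporter of the phloem, was at 1026 and 964 CPM in leaf and at 1.11 and 0.868 CPM in protoplasts. MDH6, the malate dehydrogenase of mesophyll chloroplasts, was at 6884 and 6860 CPM in leaf and at 7255 and 5641 CPM in protoplasts. RBCS2 and SUT1 were thus far lower in both protoplast libraries, and MDH6 overlapped between the groups. Other markers differed from these, since PDRP1, which encodes the regulator of pyruvate, phosphate dikinase, was at 2864 and 2865 CPM in leaf and at 3472 and 3170 CPM in protoplasts. MDH, a malate dehydrogenase listed for the bundle sheath, fell less than RBCS2, from 615.5 and 622.7 CPM in leaf to 337.6 and 233.1 CPM in protoplasts. The bundle sheath markers PCK1 and FBPA were far lower in protoplasts, as RBCS2 was. Over the complete libraries PEP1, the phosphoenolpyruvate carboxylase of the mesophyll, was at 29660 CPM in leaf 2 and at 21490 and 19870 CPM in the protoplast libraries. Over the shared genes the libraries held between 14976340 and 18322950 counts. The leaf 1 counts used here end within chromosome 3, so the shared genes and all members lie on chromosomes 1, 2, 3 and 10 of the AGPv4 assembly.

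The ranges of the members ran from 0.022 to 0.224 with a median of 0.161, which means that the highest library exceeded the lowest by 1.51% to 16.8%, with a median of 11.8%. Over all 1799 genes of the window the median range was 0.570, or 48.4%, and the largest was 3.36. The members were spread within their limit: 9 had a range of at most 0.05, 22 lay between 0.05 and 0.1, 50 between 0.1 and 0.15, 76 between 0.15 and 0.2, and 43 above 0.2. The limit fell on the rising side of the distribution and not at a gap. The last members inside it were Zm00001d032699, Zm00001d034534 and Zm00001d005539, with ranges of 0.2221, 0.223 and 0.2237, and the first genes outside were Zm00001d001837, Zm00001d027514 and Zm00001d007769, with 0.2238, 0.2239 and 0.224.

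**Figure D1:**
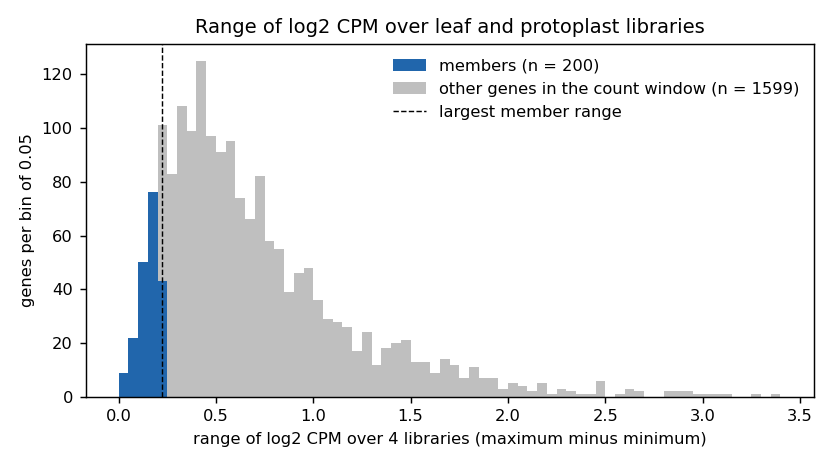
Stacked histogram of the range of log2 CPM over the 4 libraries for the 1799 genes of the count window, in genes per bin of 0.05. The 200 members (blue) fill the left flank up to 0.224, while the other 1599 genes (grey) have a median of 0.631 and reach 3.36.

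Counting alone gives some spread. For each gene the 4 counts were compared with equal shares of the library totals by chi-square, divided by its 3 degrees of freedom, so that a value near 1 is the spread expected from counting. In 32 members (16%) the value was below 1, and over all members it had a median of 3.02 and ran from 0.0708 to 17.0. Each of the 1599 other window genes was at 2.72 or above, with a median of 54.4. The larger values among the members belonged to genes with many counts, where a small percent difference exceeds the counting error.

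The steadiest gene was Zm00001d002244, described as polyadenylate-binding protein RBP45C, a member of a plant family of RNA-binding proteins that bind poly(A) and U-rich RNA (chromosome 2, 8756124 to 8760087, minus strand). It had 1677 and 1467 counts in leaf 1 and leaf 2, and 1584 and 1379 counts in protoplast 1 and protoplast 2. These were 91.5 and 92.6 CPM in leaf and 92.9 and 92.1 CPM in protoplasts, a mean of 92.1 ± 0.77 (SD, n = 2) against 92.5 ± 0.59 (SD, n = 2). The 4 values thus lay within 1.51% of each other by totals over the shared genes, and the chi-square value was 0.0708. That value is far below the one expected from counting, so the 4 values lay closer together than counting error can resolve. The gene was also picked for having the smallest range of the window, so 1.51% does not measure how steady the gene is. By complete totals over leaf 2, protoplast 1 and protoplast 2, its range was 0.124 in place of 0.022. Relatives with a similar sequence exist in this family, and whether reads that map to several places were counted is not given in the sources used here, so its count is uncertain to that extent.

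Of the 200 members, 20 (10%) carry a description in the study's supplementary tables, against 306 of the 1799 window genes (17%). The identifiers of the other 180 matched no entry of the available table of gene names. The described members are therefore a sample set by which genes the study listed, mainly markers of single-cell clusters, and not by their function. Descriptions also came from the study's list of genes enriched or depleted in protoplasts, which rests on these same libraries. A gene with a small range is less likely to be on that list. The lower share of described genes among the members is thus fixed in part by the rule, and nothing is read from it.

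Of the lists of functions drawn up from the descriptions, that of RNA processing and RNA binding held the most members. Besides RBP45C, it held Zm00001d027869, described as RBP47B', of the same family, and Zm00001d031258, a protein with RNA recognition motifs. RBP47B' was at 66.9 and 67.0 CPM in leaf and at 77.0 and 69.4 CPM in protoplasts, and Zm00001d031258 at 174.9 and 173.3 CPM in leaf and at 201.7 and 180.5 CPM in protoplasts. Both genes were nearly equal in the leaf libraries and higher in each protoplast library, most of all in protoplast 1, with ranges of 0.204 and 0.219. Among all described window genes, 8 fell in the list of RNA processing and RNA binding, and 3 of these were members. Ranges in this list had a median of 0.455 and reached 1.12, so the list as a whole was not steady.

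The next group consists of components of the protein secretion route. Zm00001d028201 is described as a SecY family protein, the channel through which proteins cross or enter a membrane, and was at 157.4 and 146.4 CPM in leaf and at 160.4 and 156.3 CPM in protoplasts (chromosome 1, range 0.131). Zm00001d030690 is described as the beta subunit of the translocon-associated protein complex, which accompanies a Sec channel in the endoplasmic reticulum, and was at 45.2 and 46.2 CPM in leaf and at 51.7 and 44.7 CPM in protoplasts (range 0.212). Neither gene separated the groups. In SecY protoplast 2 was below leaf 1, and in the translocon subunit protoplast 2 was below both leaf libraries and protoplast 1 above both.

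Redox proteins and metabolic enzymes made up a further set. Zm00001d001843, chloroplast thioredoxin X, which passes electrons to peroxiredoxins in the chloroplast of Arabidopsis, was at 268.0 and 270.7 CPM in leaf and at 289.5 and 264.4 CPM in protoplasts, and protoplast 1 alone stood above the others. Zm00001d028071 carries the name of augmenter of liver regeneration, whose relatives in yeast and animals are sulfhydryl oxidases of the mitochondrial intermembrane space. It was at 45.8 and 45.7 CPM in leaf and at 48.4 and 50.2 CPM in protoplasts, with both protoplast libraries above both leaf libraries. Zm00001d028360, an NAD(P)-linked oxidoreductase, was at 70.8 and 69.5 CPM in leaf and at 70.0 and 65.5 CPM in protoplasts, and here protoplast 2 was the low value.

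Of the enzymes of lipid and hormone metabolism, Zm00001d040842 is 12-oxo-phytodienoic acid reductase6, of a family that reduces oxo-phytodienoic acid and related compounds and includes the jasmonate-forming enzymes. It was at 240.3 and 223.3 CPM in leaf and at 225.1 and 231.9 CPM in protoplasts, so that the leaf libraries held both the highest and the lowest value (range 0.106). Zm00001d007158, described as acyl-CoA dehydrogenase IBR3, which in Arabidopsis acts in the conversion of indole-3-butyric acid to auxin, was at 70.0 and 71.9 CPM in leaf and at 72.3 and 75.6 CPM in protoplasts. Zm00001d031799, a 3-beta hydroxysteroid dehydrogenase/isomerase, was at 213.7 and 199.4 CPM in leaf and at 228.7 and 220.5 CPM in protoplasts. In the last pair of genes the protoplast libraries lay above the leaf libraries by small amounts, and the reductase overlapped.

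Regulators and proteins of transport were also present. Zm00001d029963, a myb-like transcription factor, was among the members with the most reads, at 255.9 and 266.1 CPM in leaf and at 264.0 and 282.2 CPM in protoplasts. Zm00001d006344, SUPPRESSOR OF FRI 4, and Zm00001d007835, FRIGIDA-like protein 4a, are named after Arabidopsis proteins of the FRIGIDA flowering-time pathway. The former was at 111.5 and 109.0 CPM in leaf and at 123.8 and 122.3 CPM in protoplasts, and the latter at 55.2 and 56.3 CPM in leaf and at 49.2 and 55.0 CPM in protoplasts. By library totals they thus differed from each other in direction, with protoplasts above leaf in the former and below leaf in the latter. With TMM factors, a scaling explained below, both were higher in protoplasts, with log2 fold changes of 0.45 and 0.20.

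Zm00001d024187, SUPPRESSOR OF MAX2 1, whose Arabidopsis counterpart represses responses to karrikins, was at 133.4 and 118.3 CPM in leaf and at 116.7 and 131.6 CPM in protoplasts. Zm00001d032517, of the copper transport protein family, was at 57.2 and 65.4 CPM in leaf and at 57.9 and 65.0 CPM in protoplasts. In both genes the replicates of each group differed by more than the group means did. Zm00001d023682, ABC transporter F family member 1, of a soluble family linked to translation in yeast, was at 167.2 and 157.3 CPM in leaf and at 156.3 and 151.8 CPM in protoplasts. The protoplast values were the lower ones by library totals, whereas with TMM factors its log2 fold change was 0.22.

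The remaining described members were Zm00001d023520, a WD40 repeat protein, with a range of 0.105, Zm00001d029595, a zinc-binding protein, with 0.173, and Zm00001d039664, described as LINE-1 retrotransposon polyprotein-related, with 0.183. The last of these overlaps another annotated gene, so its reads may belong in part to its neighbour. Of the 14 lists of functions drawn up from the descriptions, 10 held no member, and all lists together held 6 of the 20 described members and 132 of the 306 described window genes.

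**Figure D2:**
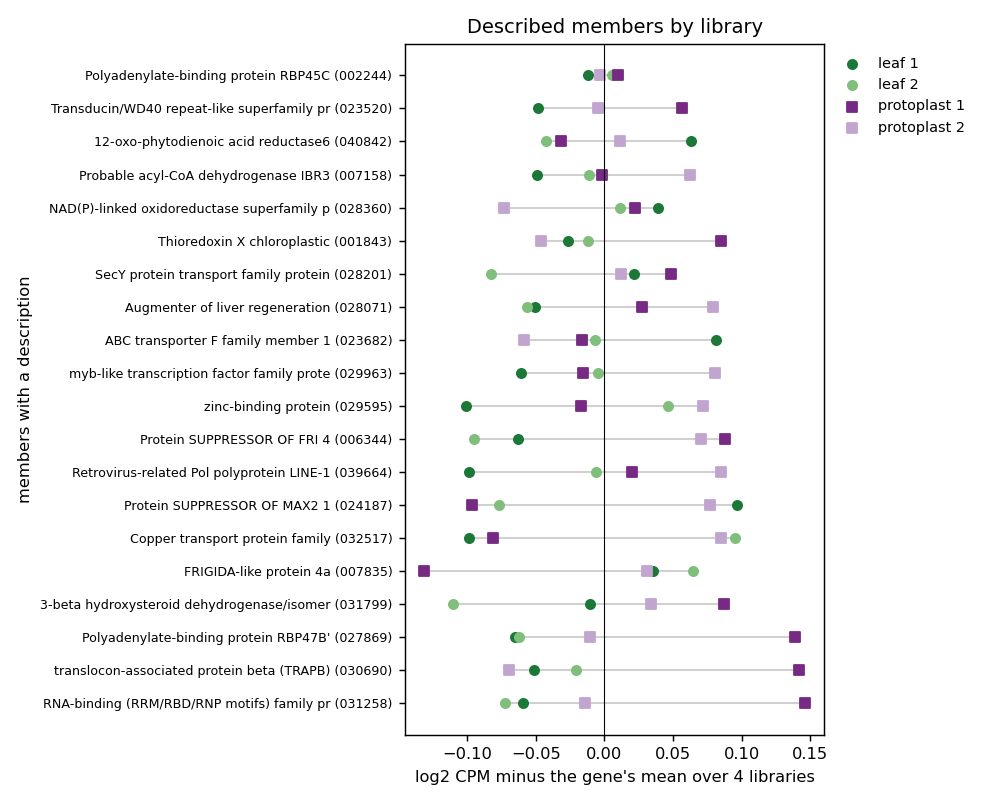
Log2 CPM of the 20 described members in each library, as the difference from the gene's own mean over the 4 libraries, with leaf as circles, protoplasts as squares, a grey line for the range, and the last digits of the identifier in parentheses. RBP45C at the top spans 0.022 and the RNA recognition motif protein at the bottom 0.219, and no library is the high or low one throughout (in the WD40 gene, leaf 2 is hidden under protoplast 2).

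Of the described window genes 6.54% were members, a share that the list of genes enriched or depleted in protoplasts can lower. The window held 47 described genes of cytosolic ribosomal proteins, 15.4% of its described genes, and 0 of them were members. Their ranges ran from 0.346 to 1.17 with a median of 0.66. By library totals the spread lay more within the groups than between them. Leaf 2 minus leaf 1 had a median of 0.54 on the log2 scale, and protoplast 2 was below protoplast 1 in 46 of the 47 with a median difference of -0.29. Protoplast minus leaf had a median of 0.16, and the groups overlapped in 40. TMM factors, a scaling explained below, raised protoplast minus leaf by 0.293, and the overlap was not counted on that scale. The proteasome and ubiquitin system had 6 described window genes and the chaperones 5, with 0 members and median ranges of 0.595 and 0.827, groups in which that share comes to less than 1 gene. The study used the actin gene ACT1 (Zm00001d010159, chromosome 8) beside a ribosomal RNA as a reference in quantitative RT-PCR. There it served to compare protoplast protocols with each other and leaf tip with leaf base, and not leaf with protoplasts. ACT1 lay outside the shared genes. Over the complete libraries it was at 22.1 CPM in leaf 2 (925 counts) and at 0.34 and 0.234 CPM in protoplast 1 and protoplast 2 (16 and 10 counts), and no test was made with 1 leaf library.

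The lists of single-cell cluster markers from the study gave few members. The lists of the 5 mesophyll clusters (MS1 to MS5) and of the adaxial bundle sheath (adBS) together named 14 members (7%) and 253 window genes (14.1%). The adBS list held 4 members of 65 window genes, MS4 4 of 109, MS5 3 of 28, MS1 2 of 16, MS3 2 of 48 and MS2 1 of 45. Members were thus listed both for the mesophyll and for the bundle sheath, whose genes such as RBCS2 were low in protoplasts. The list of the abaxial bundle sheath is held in shortened form and was not counted.

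Within the members the libraries differed as follows. The median absolute difference between the leaf libraries was 0.0458 on the log2 scale, that between the protoplast libraries 0.0807, and that between the group means 0.0635. In the window as a whole the same medians were 0.0851, 0.172 and 0.395. In the members the median for the group means thus lay between those for the leaf and for the protoplast replicates. A mean of 2 libraries varies less than a single library, so these medians are not on the same footing. The rule limits all of them in the members, so nothing is read from their order. In both sets the protoplast libraries differed more than the leaf libraries did. The highest of the 4 values was in leaf 1 in 48 members, in leaf 2 in 32, in protoplast 1 in 76 and in protoplast 2 in 44, and the lowest was in protoplast 2 in 64 members and in protoplast 1 in 35. The members took 1.784%, 1.774%, 1.817% and 1.774% of the shared counts in leaf 1, leaf 2, protoplast 1 and protoplast 2.

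By library totals, protoplast minus leaf on the log2 scale lay between -0.20 and 0.18 with a median of 0.01, with the protoplast mean above in 110 members and the leaf mean above in 90. Both protoplast libraries were above both leaf libraries in 49 members and below both in 42, and the groups overlapped in 109, whereas the groups did not overlap in 84.6% of all 9017 genes tested. The rule fixes a low count here, so nothing is read from it. The members furthest apart were Zm00001d005253, with 50.7 and 49.4 CPM in leaf and 57.3 and 56.2 CPM in protoplasts, and Zm00001d032699, with 38.3 and 38.5 CPM in leaf and 33.0 and 34.0 CPM in protoplasts. In both genes the groups were separate, and the replicates lay closer than the groups.

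Whether these genes count as steady depended on how the libraries were scaled. TMM factors, which bring the bulk of genes to a common centre in place of the totals, were 1.11 in both leaf libraries and 0.943 and 0.865 in protoplast 1 and protoplast 2, and they raised protoplast minus leaf in log2 CPM by 0.293. Fitted fold changes moved by amounts that differed somewhat between genes. By totals, the median log2 fold change of all 9017 genes tested was -0.31 and that of the members 0.01. With TMM factors, the median of all genes was -0.02 and that of the members 0.30, with all 200 members between 0.10 and 0.47. On that scale 54.6% of the genes tested lay below the lowest member and 32.4% above the highest. The median range of the members grew from 0.161 to 0.392, against 0.604 for the window. Only 12 of the 200 members were among the 200 smallest ranges on that scale, which make up 11.12% of the window. The median rank of the members was then 518 of 1799. RBP45C, the steadiest gene by totals, had a range of 0.365 and a log2 fold change of 0.30 with TMM factors.

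**Figure D3:**
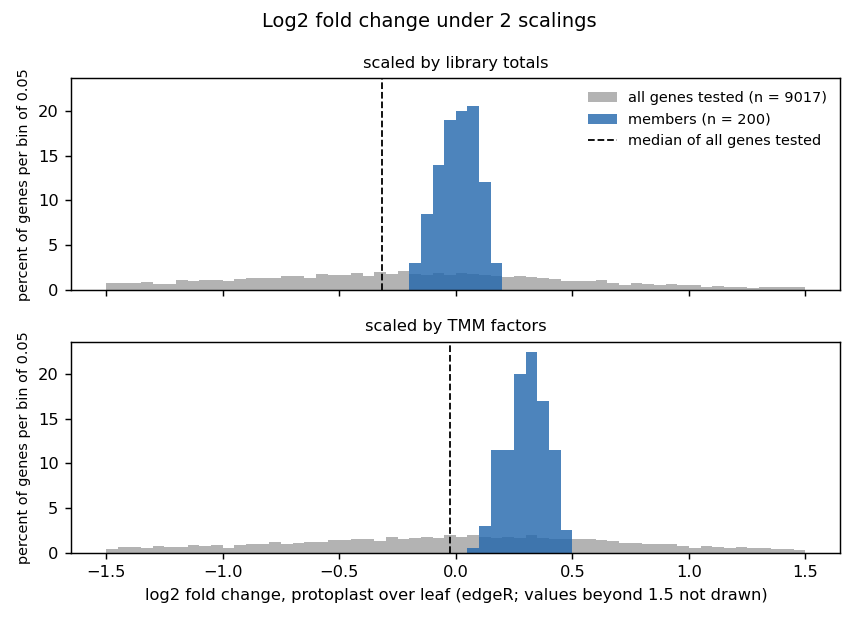
Distribution of the log2 fold change of protoplast over leaf from edgeR, as percent of genes per bin of 0.05, for all 9017 genes tested (grey) and the 200 members (blue), with library totals (top) and TMM factors (bottom). The members form the same narrow peak in both panels, centred at 0.01 by totals and at 0.30 with TMM factors, while the dashed median of all genes lies at -0.31 and -0.02.

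In edgeR's quasi-likelihood test with TMM factors, 68 members had a Benjamini-Hochberg adjusted p under 0.05 and were higher in protoplasts, against 31.1% of all genes tested, and 0 were lower, against 32.2%. None passed the fold limit of a log2 fold change beyond 1, against 43.0% (3880 of 9017), which the rule prevents. These counts are a description of genes chosen on the same contrast, and nothing is read from them about the members. With library totals in place of TMM factors, 0 members passed in edgeR and 0 had an unadjusted p under 0.05, and DESeq2 with its own size factors called 23. The count also turned on single libraries, with 0 without leaf 1 (3 at an unadjusted p under 0.05), 0 without leaf 2 (0 unadjusted), 136 without protoplast 1 and 47 without protoplast 2.

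The members were of moderate level. Their mean CPM over the libraries ran from 34.7 to 273 with a median of 67.8, against 81.6 in the window, and of 4 equal bins of the window by mean CPM the lowest held 67 members of 450 genes (14.9%), against 32 of 450 (7.11%) in the third and 46 of 450 (10.2%) in the highest. A gene near either limit of the count window stays inside it only with a small range, so the bins are not equal by construction. Per kilobase of exon, the level ran from 3.10 CPM in Zm00001d027665, a gene of 47 exon blocks, to 426 CPM in Zm00001d025711, with a median of 22.1 against 29.3 in the window. Thioredoxin X, with 329 CPM per kilobase, was near the upper end.

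Gene structure was not used by the rule, apart from the counts that longer genes collect. The summed exon length of the members had a median of 3359 bases (quartiles 1877 and 5577), against 2707 bases in the window (1614 and 5032), and the genomic span a median of 6276 against 5498 bases. Exon blocks, which are exons merged where they overlap, had a median of 7 against 6. The share of members was 8.22% in the shortest and 15.3% in the longest of 4 bins of the window by exon length, and 61 members (30.5%) spanned over 10 kb against 21.5% of the window. Among the window genes the median range was 0.629 in the shortest bin and 0.515 in the longest. The members were thus somewhat longer than the genes they were chosen from. These comparisons are descriptions without a test, and whether function or level accompanies length was not tested.

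**Figure D4:**
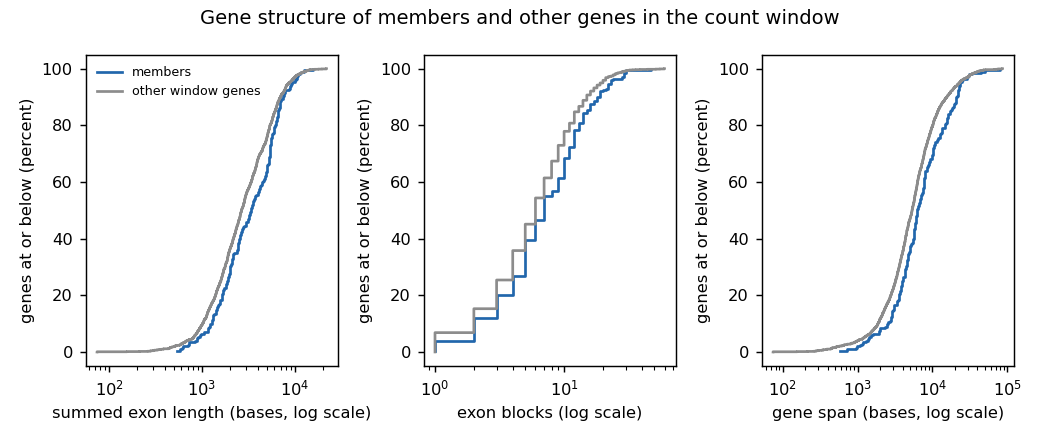
Cumulative percent of genes at or below a given summed exon length, number of exon blocks and genomic span (log axes), for the 200 members (blue) and the other 1599 genes of the window (grey). The curve of the members lies to the right over most of each panel, with a median exon length of 3359 against 2662 bases.

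The members were scattered over the genome that was held. Chromosome 1 had 90 of them (45%, against 41.6% of window genes), chromosome 2 had 57 (28.5% against 27.5%), chromosome 10 had 31 (15.5% against 15.7%), and the part of chromosome 3 had 22 (11% against 15.1%). Neighbouring members were a median of 2260 kb apart, and 3 pairs were adjacent in the annotation. The plus strand carried 107 (53.5%, against 50.8%), and 14 members (7%) overlapped another annotated gene, 12 of them on the opposite strand, against 8.89% of the window.

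With leaf 1 left aside, the other 3 libraries cover the whole annotation. Ranges over leaf 2, protoplast 1 and protoplast 2, with CPM by the complete totals of 41792981 to 47061988 counts, were at or below the members' limit in 684 of the 4677 genes that had 500 to 5000 counts in all 3 libraries (14.6%). On chromosomes 4 to 9, which hold none of the members, 388 of 2559 such genes (15.2%) lay within it, and by chromosome the share ran from 13.2% on chromosome 1 to 18.0% on chromosome 9. Genes as steady as the members in these libraries were thus found on every chromosome. Of the members themselves 149 remained within the limit, with a median range of 0.164 and a largest of 0.335. Leaving out a library can only narrow a range, whereas the change from shared to complete totals can widen it, so these ranges and those over 4 libraries are not on the same footing.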

How the data were processed

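The authors trimmed reads with Trim Galore 0.6.5, aligned them to the AGPv4 genome with STAR 2.5.1b and counted them per gene with featureCounts 2.0.1; the deposited values are these raw counts with gene coordinates. In the leaf 1 table, 10 lines were damaged or mismatched and were left out. The members and all lists were chosen with earlier results of these data known. CPM were computed from totals over the shared genes (14976340 to 18322950 counts). Genes kept by edgeR's filterByExpr (9017) were fitted in edgeR 4.0.16 (R 4.3.3) with TMM factors and the quasi-likelihood test, protoplast over leaf, with Benjamini-Hochberg adjustment, and the script was tested on simulated data. Alternatives were library totals, DESeq2 1.42.0, voom in limma 3.58.1, other filters and count windows, other measures of spread, a replicate block and each library left out. Genes named are the described members and the extremes of range, difference and level per length. With 2 libraries per group, p-values set the group difference against the spread between these pools, moderated over all genes tested. Names come from the study's tables, since no identifier matched the RefSeq table of assembly NAM-5.0. The authors' own fold changes and p-values were not used.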

Additional observations from a re-analysis of the deposited data

How the results depend on the processing

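Of the 200 members, 12 were among the 200 smallest ranges with TMM factors and 12 with DESeq2 size factors, 131 with a count window of 200 to 20000, 128 with the complete totals of 3 libraries (chosen after seeing the data), and 117 to 164 with each library left out, fewest without protoplast 2. The SD kept 188 and the chi-square 159. The members' median log2 fold change of 0.30 was 0.01 by library totals, 0.26 without a filter on low counts, 0.25 with at least 10 counts in every library, and 0.22 to 0.35 with each library left out. The 68 members called became 0 by totals, 23 in DESeq2, 23 without the filter, 27 with at least 10 counts in every library, and 0 to 136 with each library left out. Why these values moved was not tested. Over all genes, 2591 to 4206 were called beyond the fold limit against 3880.

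With the replicate number as a replicate block, 10 members and 3760 genes were called and the median stayed at 0.30. The deviations of samples of the same number from their group means had a correlation of -0.125 over 9017 genes. With 2 libraries per group the crossed pairing gives 0.125 by construction, so it adds no independent information. Nothing in the labels says that a number marks a shared origin. With the numbers crossed (added after seeing the data), 81 members and 3902 genes were called. The count window keeps out genes below 27.3 to 33.4 CPM, and with 2 libraries per group the ranges are known only to within the spread of these pools.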
